A study of Mus musculus with 3 samples.

Results

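Interferon-stimulated genes (ISGs) are the genes that cells switch on when an interferon binds its receptor. A set of 35 classical ISGs was followed across the cell types of mouse liver in single-cell RNA sequencing. The members were taken by gene symbol, and all 35 were found among the 31253 genes of the deposited count tables. They comprise the ubiquitin-like modifier Isg15 with Usp18 and Herc6, the Ifit and Oas families, the cytosolic nucleic acid sensors, the transcription factor Irf7, and a set of further antiviral effectors. No measured value entered the choice of members, although earlier results of these data were known when they were chosen.

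The study compared livers of mice carrying a floxed gene for gasdermin D (Gsdmd), the pore-forming protein of pyroptotic cell death, with livers in which the gene was deleted. The groups were profiled with 10x Genomics 3′ chemistry, 1 library per group (3 libraries in all). The library labelled FL_control is the GsdmdFL/FL genotype without irradiation, the library labelled FL_IR the same genotype after 30 Gy, and the library labelled dHep_IR the Gsdmd∆Hep genotype after 30 Gy. Both irradiated libraries were harvested after 7 days. The ∆Hep of the title does not recur in that library's genotype tag, which reads gsdmd-ko, and the other 2 libraries are tagged WT although their titles name the floxed allele. The driver of the deletion, the irradiated part of the body, the age of the mice and the number of animals behind a library are not given in the sources used here. With 1 library per group the spread between animals is unknown and groups cannot be tested against each other, so every interval below is a 95% interval for counting error alone.

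The libraries held 7265 to 8214 cell barcodes and 52858425 to 78694038 UMIs (unique molecular identifiers, each standing for 1 captured RNA molecule). After filtering, 6458 to 7261 cells per library were kept, and any pair of libraries shared 7 to 42 barcodes. Levels are UMIs per 1000000 UMIs of the same cell class and library (CPM). Classes are called X-like from marker genes, and 5 of them had at least 50 cells in every library: endothelial-like (2517 cells in FL_control, 3001 in FL_IR and 3455 in dHep_IR), neutrophil-like (459, 2342 and 1850), monocyte-like (255, 475 and 1166), Kupffer-like (551, 452 and 364) and T-like (595, 111 and 208). In each of these classes all of the class's own markers were detected in all 3 libraries. Classes were named by these same markers, so their detection does not test the names. All 8 hepatocyte markers were also detected in endothelial-like cells of all 3 libraries. FL_control and the irradiated libraries fell mostly into different clusters within a class, so library and cell state cannot be told apart there. Gsdmd itself went against the simplest reading of the labels: over all kept cells it stood at 36.4 CPM in FL_control, 7.21 CPM in FL_IR and 36.9 CPM in dHep_IR. The floxed, irradiated library was thus the lowest, in each of the 5 classes as well. Only 104, 42 and 8 hepatocyte-like cells were kept, too few to check a deletion in hepatocytes. Directions between the libraries labelled FL_IR and dHep_IR therefore rest on labels that Gsdmd did not bear out.

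Type I interferons bind the receptor pair IFNAR1 and IFNAR2, and the kinases JAK1 and TYK2 pass the signal on to a transcription factor complex that contains IRF9. This complex binds the interferon-stimulated response element (ISRE) in the promoters of ISGs. Interferon gamma acts through another receptor and the GAS element, and many ISGs answer to both. In the liver, Kupffer cells and sinusoidal endothelial cells line the blood stream and are among the first cells to meet interferons and microbial products from the gut.

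Promoters of the members were searched for the elements through which interferons are known to act. The sequence table (RefSeq, build GRCm38.p6) had an entry for 26 of the 35 members, covering 250 bases before to 50 bases after the gene start. The ISRE was searched as GAAA, any 2 bases and GAAA again, and the GAS element as TTCNNNGAA, on both strands and with overlaps allowed. ISRE letters stood in the promoter of 13 of the 26 members, or 50%, against 3.99% of all 27025 genes of the table. GAS letters stood in 6 of the 26, or 23.1%, against 9.55% of all genes, and in Bst2 a GAS match overlapped an ISRE match. The 250 bases before the start are shown for Isg15, Ifit1, Ifit3 and Rsad2, which differed most between the irradiated monocyte-like populations among the members with ISRE letters, and for Ifi44, an endothelial-like member with no match of these letters. Capitals mark the ISRE letters, and each sequence is written 5′ to 3′ on the strand of its gene: Isg15 at chr4:156200819-156201068 on the minus strand, Ifit1 at chr19:34640639-34640888 on the plus strand, Ifit3 at chr19:34583279-34583528 on the plus strand, Rsad2 at chr12:26456453-26456702 on the minus strand and Ifi44 at chr3:151749911-151750160 on the minus strand.
Isg15: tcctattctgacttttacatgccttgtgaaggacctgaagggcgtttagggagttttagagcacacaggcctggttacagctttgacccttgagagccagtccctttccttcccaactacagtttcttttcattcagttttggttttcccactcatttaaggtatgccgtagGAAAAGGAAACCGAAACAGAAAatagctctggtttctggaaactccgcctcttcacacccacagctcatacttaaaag
Ifit1: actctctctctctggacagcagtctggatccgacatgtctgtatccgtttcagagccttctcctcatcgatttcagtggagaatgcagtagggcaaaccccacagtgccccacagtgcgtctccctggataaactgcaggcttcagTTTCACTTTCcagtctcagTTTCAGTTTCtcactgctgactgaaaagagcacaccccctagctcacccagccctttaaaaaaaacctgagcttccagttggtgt
Ifit3: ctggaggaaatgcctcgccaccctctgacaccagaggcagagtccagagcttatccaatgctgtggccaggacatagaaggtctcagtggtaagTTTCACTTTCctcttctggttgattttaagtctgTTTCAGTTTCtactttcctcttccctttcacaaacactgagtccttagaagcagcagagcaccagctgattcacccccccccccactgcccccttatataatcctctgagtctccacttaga
Rsad2: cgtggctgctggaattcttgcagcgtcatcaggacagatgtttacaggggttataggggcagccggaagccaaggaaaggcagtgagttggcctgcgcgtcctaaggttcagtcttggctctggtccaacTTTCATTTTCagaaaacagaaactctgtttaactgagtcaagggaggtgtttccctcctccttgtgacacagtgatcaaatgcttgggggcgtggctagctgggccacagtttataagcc
Ifi44: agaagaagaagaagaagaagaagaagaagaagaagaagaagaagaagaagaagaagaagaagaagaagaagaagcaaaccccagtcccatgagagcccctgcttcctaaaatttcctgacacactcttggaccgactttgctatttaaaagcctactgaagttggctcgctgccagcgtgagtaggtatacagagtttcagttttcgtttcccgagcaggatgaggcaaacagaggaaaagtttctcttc
In Isg15, 3 overlapping matches began 78, 72 and 66 bases before the start. The Ifit1 promoter had 2 separate matches at 104 and 85 bases, the Ifit3 promoter 2 at 156 and 122 bases, and the Rsad2 promoter 1 at 120 bases. A match describes the letters only and says nothing on binding in these cells.

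The summed level of the 35 members was highest in the unirradiated library in all 5 classes. In Kupffer-like cells the sum was 10016 CPM in FL_control, 3750.5 CPM in FL_IR and 3453 CPM in dHep_IR. Neutrophil-like cells had 6955, 766 and 660.4 CPM, and endothelial-like cells 4654, 984 and 948 CPM. Both irradiated libraries were thus far below FL_control in these 3 classes and close to each other. Monocyte-like cells had 5695 CPM in FL_control, 1357 CPM in FL_IR and 2214 CPM in dHep_IR, the only one of the 5 classes in which dHep_IR was above FL_IR. T-like cells were nearest to level, with 3063, 2128 and 2064 CPM.

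**Figure D1:**
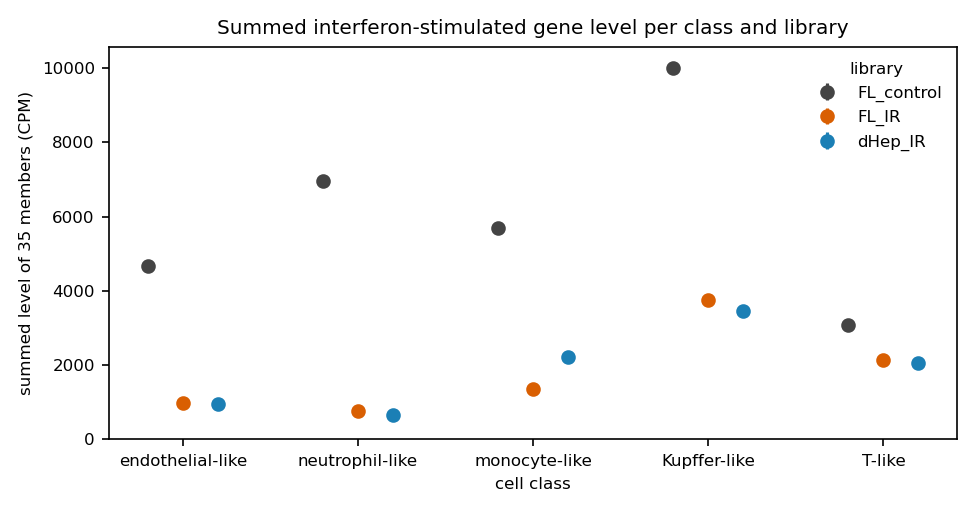
Summed level of the 35 interferon-stimulated genes (vertical axis, CPM) in 5 cell classes (horizontal axis) in 3 libraries, 1 per group; bars are 95% Poisson intervals and mostly lie within the points. FL_control is the highest point in every class, and monocyte-like cells are the class where dHep_IR (2214 CPM) lies above FL_IR (1357 CPM).

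As ratios of the sums, FL_IR was 9.08-fold (8.88 to 9.30) below FL_control in neutrophil-like cells, 4.73-fold (4.66 to 4.81) in endothelial-like cells and 4.20-fold (4.08 to 4.32) in monocyte-like cells. Kupffer-like cells were 2.67-fold (2.62 to 2.72) and T-like cells 1.44-fold (1.37 to 1.52) lower. Under TMM scaling the neutrophil-like ratio of FL_IR to FL_control was 0.198 in place of 0.110, and without Ly6e the monocyte-like ratio was 0.145 in place of 0.238. Most of each sum came from few genes: the 4 most abundant members gave 50.1 to 77.1% of it in these classes, with Ly6e, Ifi27l2a, Bst2 and Slfn5 recurring among them. Ly6e encodes a membrane protein that limits entry of some viruses, Ifi27l2a a small mitochondrial or membrane-associated protein, Bst2 the virion-retaining protein tetherin, and Slfn5 a member of the Schlafen family.

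Counted gene by gene, the lower level in FL_IR extended over nearly the whole set outside T cells. A member was called lower when its CPM was at least 2-fold lower, among genes with at least 20 UMIs over both libraries. In endothelial-like cells 33 of 34 measured members were called lower, against 16.0% of all genes measured there. Monocyte-like cells had 33 of 34, against 17.3% of all genes, and Kupffer-like cells 29 of 35, against 8.19%. Neutrophil-like cells had 32 of 34, against 34.0%, and the 11 neutrophil markers together took 130578 CPM there in FL_control, 379031 CPM in FL_IR and 403994 CPM in dHep_IR, a shift whose part in these counts was not tested. The 14 endothelial markers stood at 26151, 11996 and 14074 CPM in endothelial-like cells, where the 6 erythroid markers stood at 2497, 7.06 and 11.1 CPM and the neutrophil markers at 57.3, 1331 and 1372 CPM. Neutrophil markers in Kupffer-like cells stood at 156, 2596 and 1880 CPM (9, 11 and 11 of 11 detected, Ly6g and Cxcr2 at 0 in FL_control), and the part of these in the counts was not tested. In T-like cells 7 of 32 were called lower, against 9.08% of all genes. No measured member was at least 2-fold higher in FL_IR in any of the 5 classes. The members' median log2 ratio was -2.59 in the endothelial-like class, where all genes had a median of -0.09. The corresponding pairs were -2.86 and -0.58 (neutrophil-like), -2.89 and -0.12 (monocyte-like), -1.69 and 0.00 (Kupffer-like), and -0.52 and -0.02 (T-like). Scaling by TMM factors in place of class totals shifted neutrophil-like log2 ratios by 0.85. It left 26 of 34 members called lower while 15.2% of all genes were called lower and 23.2% higher.

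**Figure D2:**
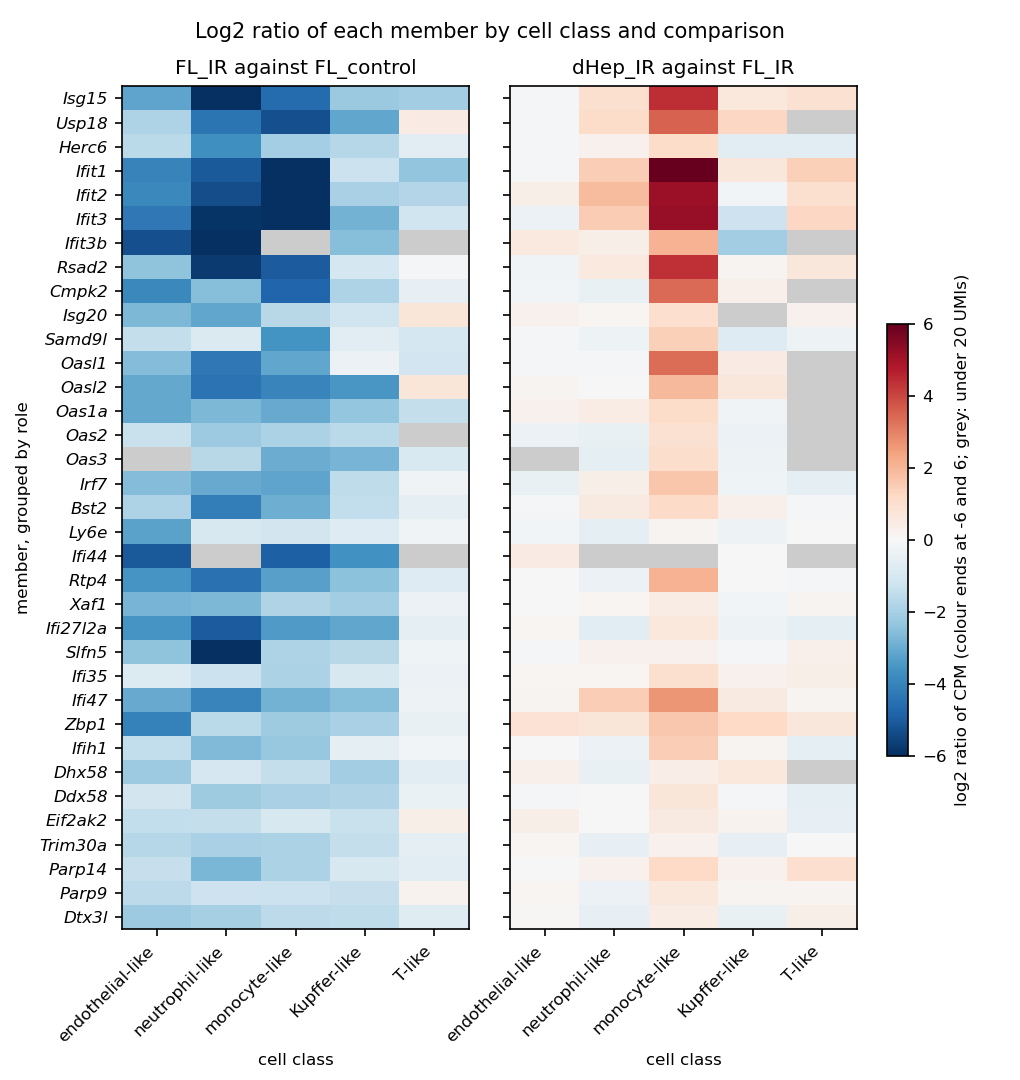
Log2 ratio of CPM for each of the 35 members (rows, grouped by role) in 5 cell classes (columns), for FL_IR against FL_control (left) and dHep_IR against FL_IR (right); grey cells had under 20 UMIs. Blue fills the left panel outside T-like cells, and the right panel is red mainly in the monocyte-like column; FL_IR enters both panels.

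The ISG15 system conjugates the ISG15 protein to other proteins, with Herc6 as the ligase in mouse and Usp18 as the enzyme that removes it and dampens interferon signalling. Isg15 in neutrophil-like cells stood at 1036 CPM in FL_control, 15.2 CPM in FL_IR and 30.0 CPM in dHep_IR. In endothelial-like cells it stood at 141, 15.8 and 14.4 CPM, and in Kupffer-like cells at 172, 36.5 and 56.3 CPM. The unirradiated library was the highest in each, and neutrophil-like cells of FL_control had the highest level of this gene among the 5 classes and 3 libraries. The fold of FL_IR below FL_control was 68.2 (61.0 to 76.4) in neutrophil-like, 8.91 (7.89 to 10.1) in endothelial-like and 4.72 (3.88 to 5.78) in Kupffer-like cells. In monocyte-like cells FL_control was again the highest but dHep_IR lay near it, with 132 CPM in FL_control, 5.38 CPM in FL_IR and 118 CPM in dHep_IR. Usp18 followed in monocyte-like cells, at 17.0, 0.359 and 5.25 CPM, where the FL_IR value rests on 2 UMIs.

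The Ifit proteins bind viral RNA lacking the methyl marks of host messages. All measured members of the family were at least 2-fold lower in FL_IR than in FL_control in the endothelial-like, neutrophil-like, monocyte-like and Kupffer-like classes (4, 4, 3 and 4 members). Among all genes measured in these classes, 16.0, 34.0, 17.3 and 8.19% were at least 2-fold lower. Ifit3b was the member furthest below FL_control in endothelial-like cells, at 39.6, 1.001 and 1.53 CPM in FL_control, FL_IR and dHep_IR. Ifit3 in Kupffer-like cells stood at 162, 22.4 and 9.43 CPM, so that dHep_IR was below FL_IR. In monocyte-like cells Ifit3 was the member furthest below FL_control, at 38.2, 0.179 and 9.98 CPM, where the value for FL_IR is 1 UMI. Ifit3 and Ifit3b cannot be separated with certainty, since their longest transcripts match at 98.0% of 1697 aligned bases.

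The Oas enzymes make the second messenger that activates RNase L on double-stranded RNA, and Oasl1 and Oasl2 are related family members. In neutrophil-like cells Oasl2 stood at 208 CPM in FL_control, 9.56 CPM in FL_IR and 9.55 CPM in dHep_IR, while Oas3 stood at 136, 43.3 and 28.6 CPM. Oas3 was nearly absent from endothelial-like cells, at 0.556, 0.389 and 0.297 CPM on 12, 7 and 6 UMIs, and was the 1 member not measured there. In Kupffer-like cells Oasl1 was the member nearest to level, with 103 CPM in FL_control, 80.6 CPM in FL_IR and 114 CPM in dHep_IR. Between dHep_IR and FL_control its ratio was 1.10 (0.965 to 1.25), while the related Oasl2 in the same cells was 11.6-fold (8.01 to 17.3) lower in FL_IR. Oas1a has a close paralog, Oas1g, that matches it at 97.85% of 1857 aligned transcript bases, so its counts may be split.

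Among the sensors, Ifih1 (MDA5) and Ddx58 (RIG-I) detect double-stranded viral RNA, Dhx58 (LGP2) modulates them, Zbp1 senses Z-form nucleic acids and can start necroptosis, and Eif2ak2 (PKR) stops translation on double-stranded RNA. In endothelial-like cells all 5 were at least 2-fold lower in FL_IR than in FL_control, against 16.0% of all genes. Their median log2 ratio was -1.49, beside -2.59 for all measured members. In neutrophil-like cells their median was -1.61, with Dhx58 at 20.8, 10.3 and 7.67 CPM the nearest of them to level. Zbp1 had the lowest ratio of the 5 in endothelial-like cells, at 12.3, 0.723 and 1.34 CPM in FL_control, FL_IR and dHep_IR. Ddx58 there stood at 77.5, 36.0 and 34.6 CPM, with both irradiated libraries alike. In Kupffer-like cells Ifih1 stood at 64.4, 43.8 and 48.6 CPM, within 2-fold of FL_control in both irradiated libraries.

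Irf7, the transcription factor that amplifies type I interferon production, was, among the 5 classes, highest in Kupffer-like cells, at 648, 227 and 189.5 CPM. Its values were 155, 17.2 and 54.6 CPM in monocyte-like cells and 146, 18.2 and 23.5 CPM in neutrophil-like cells. Both irradiated libraries were below FL_control in all 3 classes, by 2.86-fold (2.64 to 3.10) for FL_IR in Kupffer-like cells.

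The antiviral enzymes Rsad2 (viperin, which makes a chain-terminating nucleotide) and its neighbour Cmpk2 were led by neutrophil-like cells of FL_control. For Cmpk2 the lead was narrow, at 57.1 CPM against 54.7 CPM in endothelial-like cells of that library. Rsad2 stood at 635 CPM in neutrophil-like cells of FL_control, against 11.8 CPM in FL_IR and 17.8 CPM in dHep_IR. Kupffer-like cells had 179.7, 85.7 and 95.8 CPM, so that after irradiation their level was above that of neutrophil-like cells. Samd9l, an inhibitor of translation in virus-infected cells, was among the 2 members within 2-fold in neutrophil-like cells, at 155, 86.1 and 70.0 CPM, and the other was Ly6e, at 469.8, 244 and 170.3 CPM.

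The remaining members differed in their spread over classes. Ifi44 stood at 159 CPM in endothelial-like cells of FL_control, against 67.4 CPM in plasmacytoid dendritic-like, 41.9 CPM in Kupffer-like, 7.94 CPM in monocyte-like, 4.16 CPM in neutrophil-like and 2.38 CPM in T-like cells. It was 32.8-fold (26.5 to 41.0) lower in endothelial-like cells of FL_IR, at 4.84 CPM, and stood at 6.78 CPM in dHep_IR. Ifi27l2a was low in endothelial-like cells, with 1984 CPM in neutrophil-like, 1909 CPM in Kupffer-like, 1697 CPM in monocyte-like, 858 CPM in T-like and 21.6 CPM in endothelial-like cells of FL_control. In FL_IR it stood at 62.0, 218, 162, 586 and 1.84 CPM, so T-like cells held the highest level of the 5 classes after irradiation. Slfn5 in neutrophil-like cells was the member furthest below FL_control there, at 299, 3.88 and 4.63 CPM, and Bst2 was, among the 5 classes, highest in endothelial-like cells, at 1320.5, 368 and 336 CPM. Plasmacytoid dendritic-like cells, which were too few after irradiation to compare, had 4692 CPM of Bst2 in FL_control. Ifi35 was the only measured member within 2-fold in endothelial-like cells, at 75.1, 42.1 and 45.1 CPM.

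Over the 5 classes, the class with the highest CPM of a member in FL_control was Kupffer-like for 16 members, neutrophil-like for 12, endothelial-like for 4, monocyte-like for 2 and T-like for 1. In FL_IR it was Kupffer-like for 20 and T-like for 10, with endothelial-like for 3 and neutrophil-like for 2. A lead counted whatever its size. Some T-like leads in FL_IR were narrow, such as Parp9 at 28.9 CPM against 27.8 CPM in Kupffer-like cells. Usp18 led there on 6 UMIs, at 8.26 CPM against 5.90 CPM in endothelial-like cells. Others were wide, such as Ifi47 at 86.7 CPM against 16.3 CPM in Kupffer-like cells. The same count over all genes is not given, so no shift particular to the members can be read from these counts. In dHep_IR the counts were 17 Kupffer-like, 8 T-like, 5 endothelial-like, 3 monocyte-like and 2 neutrophil-like.

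The members' share of a cell's UMIs was compared after thinning cells to 1000 UMIs, so that the cells compared had equal depth. Cells with fewer UMIs were left out. These were 30, 39 and 20 Kupffer-like, 63, 112 and 116 endothelial-like and 10, 0 and 4 neutrophil-like cells of FL_control, FL_IR and dHep_IR. In Kupffer-like cells the median share was 0.9% in FL_control (quartiles 0.7 and 1.2%), 0.4% in FL_IR (0.2 and 0.5%) and 0.3% in dHep_IR (0.2 and 0.5%). The lower quartile of FL_control was thus above the upper quartile of both irradiated libraries, which places most Kupffer-like cells lower and not only a few. Endothelial-like cells had medians of 0.4, 0.1 and 0.1%, with quartiles of 0.2 and 0.6% in FL_control and 0 and 0.1% in both irradiated libraries. Neutrophil-like cells of FL_control were the most uneven, with a median of 0.4%, a 90th percentile of 1.7% and a highest cell at 8.8%. After irradiation the 90th percentile was 0.2% in both libraries, though the highest cell was at 2.3% in FL_IR and 4.4% in dHep_IR.

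**Figure D3:**
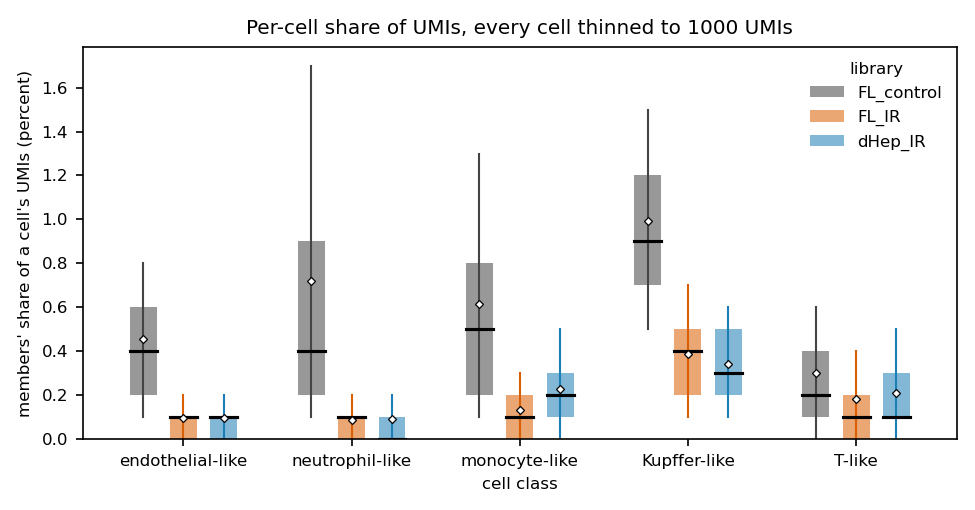
Share of a cell's UMIs that came from the 35 members (vertical axis, percent) by class (horizontal axis) and library, with cells thinned to 1000 UMIs and those with fewer left out. Boxes span the quartiles, black bars are medians, diamonds are means and lines run from the 10th to the 90th percentile; Kupffer-like cells of FL_control (median 0.9%) lie above both irradiated libraries, and neutrophil-like cells of FL_control spread widest.

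Set against the library labelled FL_IR, the library labelled dHep_IR had higher ISG levels in monocyte-like cells. There, 22 of 34 measured members were at least 2-fold higher, against 7.40% of all genes, and none was lower. Under TMM scaling 23 of 34 were at least 2-fold higher, against 8.0% of all genes, and 0 at least 2-fold lower, against 2.93%. The median log2 ratio was 1.17, against -0.04 for all genes, and the sum of the members was 1.63-fold (1.59 to 1.67) higher. Ly6e, the most abundant member there in FL_IR, stood at 1633, 768 and 870.4 CPM in FL_control, FL_IR and dHep_IR, and without it the sum was 2.28-fold higher. FL_IR is part of both comparisons, and its own monocyte-like values were the lowest of the 3 libraries for all 35 members.

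**Figure D4:**
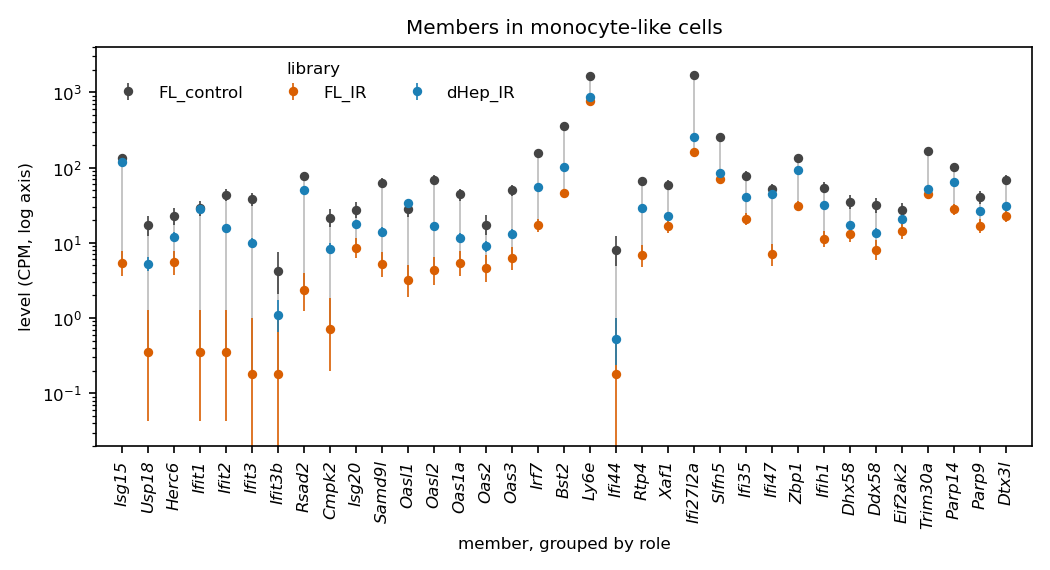
Level of each of the 35 members in monocyte-like cells (vertical axis, CPM, log axis) in 3 libraries; members are grouped by role along the horizontal axis, bars are 95% Poisson intervals, and intervals that reach below the axis are cut at its lower end. FL_IR is the lowest point for all 35 members, and Oasl1 is the 1 member for which dHep_IR (33.6 CPM) lies above FL_control (28.4 CPM).

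The gap was widest in the Ifit family. Ifit1 in monocyte-like cells stood at 29.1 CPM in FL_control, 0.359 CPM in FL_IR and 28.3 CPM in dHep_IR, on 77, 2 and 490 UMIs. Ifit2 stood at 43.1, 0.359 and 15.5 CPM, on 114, 2 and 269 UMIs. In dHep_IR, Ifit1 stood at 0.971 (0.762 to 1.25) of FL_control, whereas Ifit2 was 2.78-fold (2.21 to 3.47) below it. The ratios of dHep_IR to FL_IR were 78.9 (21.7 to 653) for Ifit1, 55.7 (9.86 to 2212) for Ifit3 and 43.3 (11.9 to 359) for Ifit2, with intervals this wide because FL_IR held 1 or 2 UMIs of each. Better counted were Isg15, with 30 UMIs in FL_IR and a ratio of 21.9 (15.3 to 32.5), and Rsad2, with 13 UMIs and a ratio of 21.4 (12.4 to 40.3). Oasl1, at 28.4, 3.23 and 33.6 CPM, was the only member with a higher level in dHep_IR than in FL_control (ratio 1.18, interval 0.930 to 1.53), though under TMM scaling 4 of 35 members were higher. With dendritic cells left out, Ifit1 was higher in dHep_IR as well, at 29.4 CPM against 20.5 CPM in FL_control.

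Other roles followed at smaller ratios in monocyte-like cells. Irf7 was 3.18-fold (2.57 to 3.96), Zbp1 3.03-fold (2.58 to 3.56) and Ifi47, an interferon-inducible GTPase, 6.32-fold (4.58 to 8.96) higher in dHep_IR than in FL_IR. Of the 5 sensors only Zbp1 and Ifih1 reached 2-fold, and of Parp9, Dtx3l, Parp14 and Trim30a, which act in ADP-ribosylation and ubiquitination, only Parp14 did. Ly6e was the member with the smallest ratio, 1.13 (1.09 to 1.17), followed by Trim30a at 1.18 (1.02 to 1.36) and Slfn5 at 1.21 (1.08 to 1.36). By promoter, 9 of the 13 measured members with ISRE letters and 9 of the 12 without them were at least 2-fold higher, against 7.40% of all genes. The median log2 ratios were 1.15 with the letters and 1.54 without them.

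Neither the class's depth nor its makeup was equal between the libraries. Median UMIs per monocyte-like cell were 9946, 11581 and 14602.5 in FL_control, FL_IR and dHep_IR. Cells named dendritic at a finer clustering made up 111 of 255, 3 of 475 and 65 of 1166 cells. Without them the summed level was 7239, 1355 and 2200 CPM, so the difference between dHep_IR and FL_IR was as large. Transcripts of all 11 neutrophil markers were found in monocyte-like cells of both irradiated libraries and of 9 in FL_control (Ly6g and Camp at 0), with a summed level of 361 CPM in FL_control, 10015 CPM in FL_IR and 22866 CPM in dHep_IR. The 8 Kupffer markers summed to 859, 301 and 1009 CPM there. The part of these in the ISG difference was not tested.

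Cells were also clustered with the members and the interferon pathway genes left out, so that ISGs did not set the clusters directly. The monocyte-like cells of dHep_IR then fell into a cluster led by Saa3, S100a4 and Vcan that it shared with FL_control (cluster 9) and a cluster led by Vcan, Saa3 and F13a1 that it shared with FL_IR (cluster 25). In cluster 9 the summed level was 7254 CPM in FL_control and 3358 CPM in dHep_IR, and 27 FL_IR cells lay in it. In cluster 25 it was 1338 CPM in FL_IR and 1523 CPM in dHep_IR. The higher sum of dHep_IR thus lay in the 437 cells of cluster 9 more than in the 651 cells of cluster 25. Isg15 differed within the shared cluster as well, at 4.78 CPM in FL_IR (25 UMIs) and 26.5 CPM in dHep_IR (276 UMIs), and stood at 263 CPM in cluster 9 of dHep_IR, above the 153 CPM of FL_control.

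**Figure D5:**
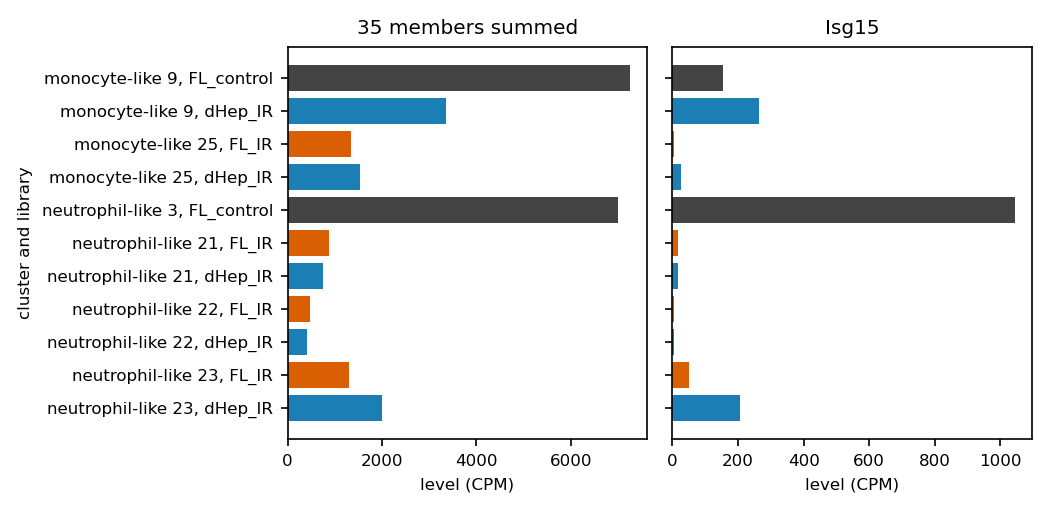
Summed level of the 35 members (left) and level of Isg15 (right), in CPM (horizontal axes), for clusters of monocyte-like and neutrophil-like cells made without the members, 1 bar per cluster and library with at least 50 cells. In neutrophil-like cluster 23 and monocyte-like cluster 25, which both irradiated libraries share, Isg15 is higher in dHep_IR (206 and 26.5 CPM) than in FL_IR (50.04 and 4.78 CPM).

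In neutrophil-like cells the members divided between FL_IR and dHep_IR. Of 34 measured, 5 were at least 2-fold higher in dHep_IR, against 4.17% of all genes, and 0 at least 2-fold lower, against 2.97%. The 5 were Ifit1, Ifit2, Ifit3, Usp18 and Ifi47. Ifit2 had the highest ratio, 3.85 (2.11 to 7.51), on 0.560 and 2.16 CPM, while Ifi27l2a, Oas3 and Ly6e had the lowest, with Ifi27l2a at 0.626 (0.578 to 0.679). The sum was lower in dHep_IR, at a ratio of 0.863 (0.845 to 0.881), but 1.03 when every cell had the same weight.

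The clusters made without members split the neutrophil-like cells of the irradiated libraries into 3 groups. In cluster 22, led by the granule genes Ngp, Camp and Ltf, the summed level was 480.4 CPM in FL_IR and 409 CPM in dHep_IR. In cluster 21, led by Retnlg and the stefins, it was 876 and 745 CPM. Cluster 23, led by Retnlg, Cstdc4 and Stfa2l1, had 1304 CPM in FL_IR and 1990.1 CPM in dHep_IR. Of the 3 clusters, the sum was higher in dHep_IR than in FL_IR in this one alone, with Isg15 at 50.04 and 206 CPM and Ifit1 at 8.98 and 43.7 CPM. Cluster 22 held 666 of the neutrophil-like cells of FL_IR and 1057 of those of dHep_IR.

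Endothelial-like cells showed almost no difference between the irradiated libraries. None of 34 measured members was at least 2-fold higher in dHep_IR (against 1.48% of all genes) or at least 2-fold lower (against 2.14%). The members divided into 19 lower and 15 higher, which became 12 lower and 22 higher under TMM scaling, and the ratio of the sums was 0.963 (0.944 to 0.983). Zbp1 had the highest ratio, with 0.723 CPM in FL_IR (13 UMIs) and 1.34 CPM in dHep_IR (27 UMIs).

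Kupffer-like cells were mixed. Higher by at least 2-fold in dHep_IR were 2 of 34 measured members, against 2.97% of all genes, and lower were 2, against 6.27%. The higher ones were Usp18, at 4.80 CPM in FL_IR and 11.5 CPM in dHep_IR, and Zbp1, at 28.8 and 65.7 CPM. Lower were Ifit3, 2.37-fold (1.54 to 3.73), and Ifit3b, 4.56-fold (1.67 to 15.5), while Ifit1 of the same family stood at 18.6 and 29.5 CPM. The count of lower members is near that background, and Ifit3 and Ifit3b, on 32 and 5 UMIs in dHep_IR, are the near-identical pair whose reads cannot be told apart with certainty.

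T-like cells had few UMIs, 726642 in FL_IR, so 1 UMI was worth over 1 CPM there. In that comparison 3 of 25 measured members were at least 2-fold higher in dHep_IR, against 5.30% of all genes, and 0 lower, against 3.29%. The 3 were Ifit1, Ifit3 and Parp14, and Parp14, with 30 and 135 UMIs, had a ratio of 2.05 (1.37 to 3.15). Isg15 stood at 238 CPM in FL_control, 55.0 CPM in FL_IR and 105 CPM in dHep_IR. FL_control was the highest, and dHep_IR lay between, with a ratio to FL_IR of 1.91 (1.35 to 2.77). The T-like cells of FL_control were themselves uneven: a cluster led by Cd3g, Trbc2 and Trac with Cxcr6 had 514 CPM of Isg15, against 159.5 CPM in the cluster with Il7r, Lef1 and Tcf7 that all 3 libraries shared. Within that shared cluster the summed level was 2648, 2128 and 2137 CPM.

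Against FL_control, dHep_IR had 33 of 34 members at least 2-fold lower in endothelial-like cells (18.5% of all genes), 33 of 34 in neutrophil-like cells (38.0%) and 27 of 35 in Kupffer-like cells (13.4%). In monocyte-like cells the count was 20 of 35 (17.8%), and in T-like cells 9 of 32 (7.55%). Scaled by class totals, monocyte-like cells of dHep_IR thus still had most of the set at least 2-fold below the unirradiated library. Under TMM scaling the neutrophil-like count was 27, while 16.2% of all genes were called lower and 26.3% higher. The monocyte-like count was 16 of 35 under that scaling, no longer most of the set, while 12.8% of all genes were called lower and 10.2% higher.

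The classes with under 50 cells in an irradiated library are given as levels. Plasmacytoid dendritic-like cells, the professional producers of type I interferon, had 9843 CPM of the members in FL_control (151 cells). Only 0 and 3 such cells were kept from FL_IR and dHep_IR. This sum was close to that of Kupffer-like cells but differently made up. Bst2 alone gave 4692 CPM, and the 4 most abundant members gave 88.4%, against 66.7% in Kupffer-like cells of FL_control. Rsad2 stood at 18.9 CPM against 179.7 CPM in Kupffer-like cells, and Ifi44 at 67.4 CPM against 41.9 CPM. B-like cells had 2976, 1536 and 1341 CPM on 1416, 21 and 11 cells, and NK or ILC1-like cells 2107, 1639 and 1574 CPM on 213, 34 and 77 cells. Hepatocyte-like cells had 1137, 334 and 316 CPM on 104, 42 and 8 cells. The value for dHep_IR rests on 6 UMIs, with an interval of 116 to 688 CPM. Median mitochondrial shares of these cells were 0.329, 0.0402 and 14.1%. Cholangiocyte-like cells had 1215, 1662 and 1186 CPM on 55, 48 and 86 cells. Ly6e alone gave 678, 1297 and 978 CPM of these sums, and Isg15 in the same cells was highest in FL_control, at 34.3, 8.69 and 0.784 CPM on 21, 8 and 2 UMIs.

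Transcripts of the ligands were scarce. Over all kept cells, Ifnb1 had 9, 0 and 7 UMIs in the order FL_control, FL_IR, dHep_IR, and the other type I and type III genes listed had at most 1 UMI in a library. Ifng, the gene of interferon gamma, stood at 36.4, 2.36 and 13.5 CPM over all kept cells. Its level was 647, 259 and 1279 CPM in NK or ILC1-like cells, on 213, 34 and 77 cells, and 230.4, 96.3 and 249 CPM in T-like cells. FL_IR was the lowest in each, and dHep_IR was below FL_control over all cells but not within these classes. Of the receptor genes, Ifnar1 stood at 50.7, 48.9 and 47.5 CPM in endothelial-like and at 57.6, 56.0 and 61.6 CPM in Kupffer-like cells. In T-like cells it stood at 80.1, 72.9 and 37.6 CPM. None of the 5 measured receptor genes differed by 2-fold between FL_IR and FL_control in the endothelial-like or the Kupffer-like class. Among all genes, 16.0% and 8.19% were at least 2-fold lower in these classes, so no trait of the receptors can be read from so few genes.

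Among the inhibitors of cytokine signalling, Socs3 was higher in both irradiated libraries in Kupffer-like cells, at 25.4, 316 and 357 CPM. It stood at 70.8, 341 and 289 CPM in T-like cells and at 309, 280 and 271 CPM in cholangiocyte-like cells. Socs1, the feedback inhibitor of interferon signalling, stood at 20.4, 4.12 and 20.3 CPM in monocyte-like cells. In T-like cells Socs1 was instead highest in FL_IR, at 87.5, 150 and 122 CPM, and in NK or ILC1-like cells it stood at 83.5, 91.0 and 81.2 CPM.

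Genes known mainly as targets of interferon gamma were also higher in the monocyte-like cells of dHep_IR. All 10 listed genes were at least 2-fold higher in dHep_IR than in FL_IR, against 7.40% of all genes, with a median log2 ratio of 4.11 beside 1.17 for the members. The class included dendritic cells, 3 of 475 cells in FL_IR and 65 of 1166 in dHep_IR. Values of these genes without dendritic cells are not given. Gbp2, a guanylate-binding protein of cell-autonomous defence, stood at 145, 5.56 and 128 CPM. Cxcl9, a chemokine for T cells, stood at 400.1 CPM in FL_control, was not detected among 5578197 UMIs of FL_IR (3 counts there would be 0.538 CPM) and stood at 120.3 CPM in dHep_IR. In Kupffer-like cells 6 of 8 measured were at least 2-fold higher in dHep_IR, against 2.97% of all genes, among them Gbp4 at 65.7, 3.52 and 15.03 CPM, while in endothelial-like cells 2 of 9 were, against 1.48% of all genes. The difference between the lists was not tested.

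RNA from lysed cells was not removed from the counts, and depth moved with the libraries: median UMIs per cell were 3489, 9852 and 13266.5 in neutrophil-like, 8422, 5651 and 5554 in endothelial-like and 9636, 4928.5 and 7013.5 in Kupffer-like cells. Irradiation, library and the mice behind it cannot be told apart in this design.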

How the data were processed

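The deposited matrices hold whole-number UMI counts, not normalised, for each gene and barcode of 3 mouse liver libraries. Per the submitters' processing notes, the authors used CASAVA 1.8, Cell Ranger 6.1.1 and Seurat 4.0.3 with the build mm10; their parameters are not given in the sources used here. Cells with at least 500 UMIs, 250 genes and at most 25% mitochondrial UMIs were kept, and doublets called by Scrublet (expected 6%; 160, 235 and 291 cells) were removed. RNA outside cells was not corrected for.

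Counts were log-normalised and clustered with scanpy 1.11.5 and igraph 0.11.9 (2000 variable genes, 30 principal components, 15 neighbours, Leiden resolution 1), giving 27 clusters. A cluster took a class name where at least 3 of its markers were found in at least 10% of its cells, and Kupffer-like also required Clec4f in at least 60%; these limits were set after the clusters were seen. Raw UMIs were summed per class and library over classes of at least 50 cells. Ratios of CPM used genes with at least 20 UMIs; calls used a prior count of 0.5 and a 2-fold limit. Intervals (95%) are exact Poisson or binomial intervals for counting error only, computed with scipy 1.17.1, numpy 2.4.6 and python 3.11.15, and the code was tested on simulated data. TMM factors came from edgeR 4.0.16. The floor for a count of 0 was 3 counts.

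Members and gene lists were chosen with earlier results of these data known. The rule for named genes took every member, the 3 highest and 3 lowest measured ratios per class and comparison, the 4 most abundant members per class, and listed pathway genes; which other members are described by role was decided after their values were seen. Promoters came from a RefSeq table of build GRCm38.p6. Other normalisations, filters, clusterings and thinning depths were tried as alternatives. The listed kinases and transcription factors of the pathway are not reported here.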

Additional observations from a re-analysis of the deposited data

Results flagged for a closer look

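Ifit3 moved in opposite directions between cell classes when the library labelled dHep_IR was set against the library labelled FL_IR. The log2 ratio was 1.51 in neutrophil-like cells, on 35 UMIs in FL_IR and 101 in dHep_IR, and 5.22 in monocyte-like cells, on 1 and 173 UMIs. In Kupffer-like cells it was -1.24, on 70 and 32 UMIs. With 1 library per group the difference between classes was not tested, and reads of Ifit3 and Ifit3b may be split between the copies.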

How the results depend on the processing

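No paired analysis was possible because each group has 1 library, and for the same reason no library could be left out. The summed level of FL_IR stayed below FL_control in all 5 classes under every alternative run. Its ratio to FL_control under TMM factors was 0.276 (monocyte-like), 0.223 (endothelial-like) and 0.198 (neutrophil-like), and the neutrophil-like median log2 ratio was -2.02. The most abundant member in FL_IR was Bst2 in endothelial-like cells and Ly6e in the other classes. In FL_control Ifi27l2a led instead in T-like, neutrophil-like and monocyte-like cells, and values without Ifi27l2a are not given. With the leading member of FL_IR left out, this ratio to FL_control was 0.635 (T-like), 0.265 (Kupffer-like), 0.185 (endothelial-like), 0.145 (monocyte-like) and 0.0804 (neutrophil-like). As a mean of per-cell CPM it was 0.123 (neutrophil-like), 0.392 (Kupffer-like) and 0.629 (T-like). With doublets kept it was 0.216 (endothelial-like) and 0.364 (Kupffer-like), and with the stricter cell filter 0.215 (endothelial-like). Clustered without members it was 0.216 (endothelial-like) and 0.188 (monocyte-like), and it was 0.187 in monocyte-like cells both at resolution 2 and without dendritic cells. With at least 100 UMIs per gene the monocyte-like median was -2.25. Of the 2 alternatives chosen after seeing the data, adding macrophages low in Clec4f gave 0.452 in Kupffer-like cells. Between dHep_IR and FL_IR the direction of small differences depended on the choice: TMM factors gave 1.02 in endothelial-like and 1.02 in Kupffer-like cells (values 1.017 and 1.015), leaving out Ly6e gave 1.03 in Kupffer-like cells, and the mean of per-cell CPM gave 1.03 in neutrophil-like cells, each reversed. Further values were 0.916 (neutrophil-like) and 1.70 (monocyte-like) under TMM, 0.939 (stricter filter), 0.943 (clustered without members) and 0.993 (most abundant member left out) in endothelial-like cells, 0.940 and 2.28 without the most abundant member in neutrophil-like and monocyte-like cells, 1.58 with doublets kept in monocyte-like cells and 1.08 as a per-cell mean in T-like cells. The neutrophil-like median log2 ratio was 0.43 and that of Rtp4 0.03, reversed, as per-cell means. The mean share was 0.953% in Kupffer-like cells of FL_control without thinning and 0.323% in T-like cells of FL_control at 2000 UMIs. The causes were not tested. Among the 5 classes, T-like cells of FL_IR had the fewest UMIs in all, 726642, and 25 members were measured there against dHep_IR.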
